A study of Mus musculus with 8 samples.

Results

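The genes described here encode the signaling subunits of the T cell receptor, its coreceptors and the kinases that act directly on it: Cd3d, Cd3e, Cd3g, Cd247, Cd8a, Cd8b1, Cd4, Lck and Zap70. They were chosen by gene symbol, and all 9 of 9 were measured among the 750 immune-related genes of the panel. The counts came from 8 tumors of wild-type male C57BL/6 mice that had received 500000 MC38 cells, a mouse colon cancer line, into the peritoneal cavity. From day 7 after implantation, 4 mice were injected intraperitoneally with RR-CDA, a cyclic dinucleotide that activates the innate immune receptor STING, and 4 with an equal volume of PBS; these groups are called STING and Control. RNA was taken from whole tumor tissue, so each value mixes cancer cells with every infiltrating cell, and nothing in the labels says which tumors were handled together. The sample labels give the tissue as colon, although the tumors grew in the peritoneum.

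The receptor recognizes peptides held by MHC molecules through chains that have almost no cytoplasmic tail, and it depends on the CD3 gamma, delta and epsilon chains and on the zeta chain to signal. The coreceptors CD8 and CD4 bind MHC class I and class II molecules and bring the kinase Lck to the complex, where it phosphorylates the tails of the CD3 and zeta chains. ZAP-70 docks on these phosphorylated tails and passes the signal on. In tumors, CD8 T cells are the lymphocytes best known for killing cancer cells, while CD4 T cells include both helper and regulatory cells.

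The counts of the 750 genes summed to between 241506 and 414698 per tumor. Controls 2 and 4 differed by less than the sampling noise over 358 genes of moderate count, where the chi-square divided by its degrees of freedom was 0.404; it was 5.89 to 12.6 for the 11 other pairs within a group. Their mean was counted as 1 sample, so the comparison had 3 Control and 4 STING samples. The labels do not say whether Controls 2 and 4 are 1 RNA sample measured again. Counts out of 4 Control tumors or out of 8 tumors take them as separate tumors. Normalized counts are counts divided by the geometric mean of 20 housekeeping genes, relative to its average over samples. Values are listed below in the order Control 1, the averaged Control 2 and 4, Control 3, and then STING 1 to 4. The background floor, the mean plus 2 SD of 8 negative control probes, lay at 4.85 to 11.3 normalized counts. Several of the 9 genes lay close to that floor in the Control tumors. STING 4 stood apart in genes made mostly by the liver, listed after their values were seen: the sum of 12 such genes, with Ambp the most abundant, was 54.6, 55.9 and 122 normalized counts in the Control samples and 73.6, 48.9, 70.5 and 2280 in the STING samples, and each of the 12 was highest in STING 4. The part of other tissue in the values of this tumor was not tested, and results without it are given below.

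Of the 9 genes, 4 were higher in the STING tumors at an unadjusted p under 0.05 (Cd3e, Cd3g, Cd8a and Cd8b1) and 0 were lower, where 17.7% of the 750 genes were higher and 1.33% lower by the same rule. None of the 9 passed after Benjamini-Hochberg adjustment over the panel (edgeR quasi-likelihood test, lowest adjusted p = 0.181), and 0 of the 750 genes did (0%; 143 had an unadjusted p under 0.05). With limma 0 of the 750 genes passed, and with the Wald test of DESeq2 52 did, Cd3g being the member of this group among them. The groups did not overlap for 4 of the 9 genes, all higher in STING tumors (Cd3e, Cd3g, Cd8b1 and Lck), against 16.8% of the panel higher and 1.47% lower without overlap. The median log2 fold change of the 9 genes, Cd4 included, was 0.82, beside 0.21 for all 750 genes. The count of 4 at an unadjusted p under 0.05 became 1, Cd3g, without STING 1, without STING 4, or without Controls 2 and 4, where 10.3%, 10.5% and 12% of the panel were higher, and 2 without Control 1 (Cd3g and Cd8a; panel 12.4%). Without STING 4 the log2 fold changes of Cd3d, Cd3e, Cd3g, Cd247, Cd8a, Lck and Zap70 were 0.29, 0.80, 1.37, 0.41, 1.11, 0.82 and 0.61. In that setting 4 of the 9 genes were higher without overlap, where 137 of the 750 genes were higher and 19 lower without overlap. In whole tumors, more cells of a type and more RNA per cell cannot be told apart, nor can fewer cells and less RNA.

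**Figure D1:**
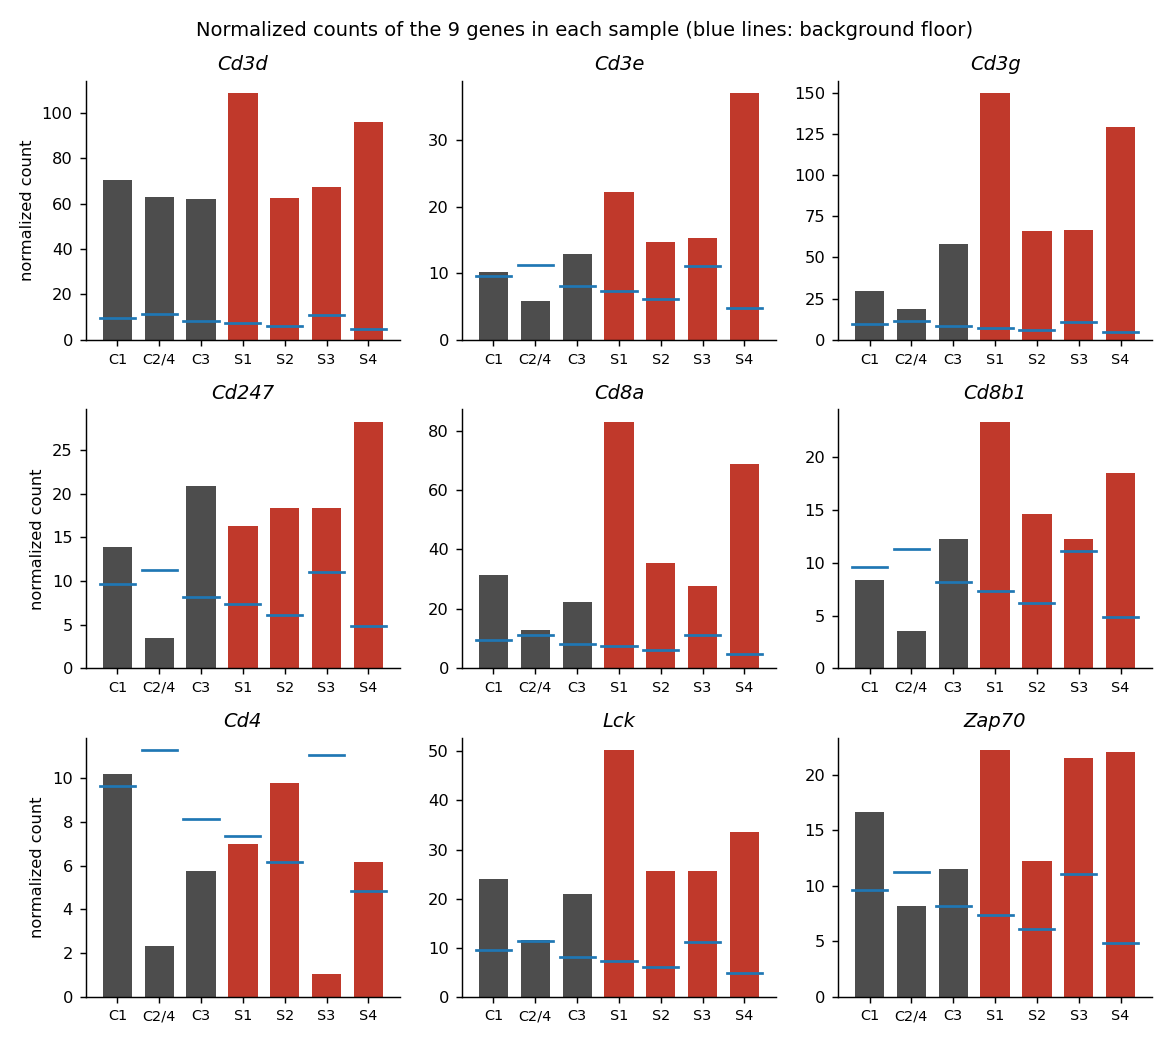
Normalized counts of the 9 genes (y axis) in each of the 7 samples (x axis; C, Control in gray; S, STING in red; C2/4 is the mean of Controls 2 and 4), with the background floor of that sample as a blue line. Cd3g reached 149 and 129 normalized counts in STING 1 and STING 4, while Cd4 stayed within 1.02 to 10.2 in every sample, near or under the floor.

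The CD3 chains differed in how far the groups lay apart. CD3 gamma, encoded by Cd3g, pairs with CD3 epsilon in the receptor and had 29.6, 18.6 and 58.4 normalized counts in the Control samples and 149, 66.0, 66.4 and 129 in the STING samples. Every STING tumor lay above every Control sample, STING 1 and STING 4 by a wide margin and STING 2 and STING 3 by little over Control 3. Its log2 fold change was 1.51 (95% confidence interval 0.45 to 2.56; SE 0.47; edgeR adjusted p = 0.181), the highest of the 9 genes. It stayed between 1.21 and 2.08 in the 20 other settings tried, and the highest value was reached without Control 3. The adjusted p of Cd3g was 0.0273 with DESeq2 and 0.0690 to 0.408 in the other settings.

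CD3 epsilon, which forms a dimer with either gamma or delta and is the chain bound by the antibodies most used to stain T cells, had few counts. Its normalized counts were 10.2, 5.83 and 13.0 in the Control samples and 22.2, 14.7, 15.3 and 37.1 in the STING samples. The groups did not overlap, STING 4 was the highest, and the count of 5 in Control 2 and in Control 4 was under the background floor of each tumor. An exact Poisson interval for 5 counts runs from 1.62 to 11.7, and for the 42 counts of STING 4 from 30.3 to 56.8; such intervals cover counting error only. On the log2 scale the fitted difference was 1.18 (95% confidence interval 0.14 to 2.23, edgeR adjusted p = 0.223), and 0.80 without STING 4. The Control mean of Cd3e was just under the mean floor of the Control samples, so neither value is an exact fold change.

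CD3 delta, the product of Cd3d, is the partner of epsilon in the other CD3 dimer. Cd3d had 70.3, 62.9 and 62.0 normalized counts in the Control samples and 109, 62.3, 67.4 and 96.2 in the STING samples. STING 1 and STING 4 were above all Control samples, whereas STING 2 and STING 3 lay among them, so the groups overlapped. The Control samples were close to each other for this gene (65.1 ± 4.57, SD, n = 3), and each of the 8 tumors was above its background floor. In the averaged Controls 2 and 4, where Cd3g and Cd3e had their lowest values (18.6 and 5.83), Cd3d was at 62.9. It thus did not follow these chains among the Control samples, and which cells gave its counts was not tested. The log2 fold change of Cd3d was 0.36 (95% confidence interval -0.23 to 0.96, edgeR adjusted p = 0.483). It was 0.08 with the size factors of DESeq2 and 0.09 with TMM normalization, which scale to the bulk of the panel.

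The difference between Cd3g and Cd3d showed in their ratio, which was looked at after the values had been seen and carries no test. On the log2 scale, Cd3g over Cd3d was -1.22, -1.70 and -0.09 in the Control samples and 0.46, 0.08, -0.02 and 0.42 in the STING samples. Each STING tumor had a higher ratio than each Control sample, though STING 3 and Control 3 were close together. The mean ratio differed by 1.24 on the log2 scale, and since both genes are measured in the same tumor the scaling enters it only through the 1 added to each value. The same ratio for Cd3e to Cd3d, at -2.67, -3.23 and -2.17 against -2.24, -2.02, -2.07 and -1.35, overlapped between the groups. The probes differ in efficiency, so the sign of such a ratio says nothing about which chain was more abundant.

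Cd3g and Cd3d lie head to head on chromosome 9, their starts 1338 bases apart, with Cd3e 11683 bases beyond Cd3d. The upstream sequences of Cd3g and Cd3d are shown because the fitted fold changes of these neighbors differed, beside that of Cd8a. That difference was not tested, and the 95% confidence intervals of the 2 genes overlapped. The promoter table used (RefSeq, build GRCm38.p6) held 7 of the 9 genes, with 10 start sites, and had no entry for Cd4 and Cd8b1. Each line holds the 250 bases before the start, 5′ to 3′ in the direction of the gene: chr9:44980432-44980681 on the minus strand for Cd3g, chr9:44981536-44981785 on the plus strand for Cd3d, and chr6:71373177-71373426 on the plus strand for Cd8a. The last 17 bases of the Cd3d line lie within the annotated span of that gene.
Cd3g: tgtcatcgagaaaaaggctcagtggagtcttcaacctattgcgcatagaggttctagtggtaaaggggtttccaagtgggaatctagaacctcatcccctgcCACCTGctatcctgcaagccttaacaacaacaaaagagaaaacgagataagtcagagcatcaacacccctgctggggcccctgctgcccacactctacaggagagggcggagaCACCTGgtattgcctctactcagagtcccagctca
Cd3d: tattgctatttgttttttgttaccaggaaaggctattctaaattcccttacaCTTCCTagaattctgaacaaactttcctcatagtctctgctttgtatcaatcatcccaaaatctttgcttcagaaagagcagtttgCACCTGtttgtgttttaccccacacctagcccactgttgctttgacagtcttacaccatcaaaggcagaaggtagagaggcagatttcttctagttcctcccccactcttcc
Cd8a: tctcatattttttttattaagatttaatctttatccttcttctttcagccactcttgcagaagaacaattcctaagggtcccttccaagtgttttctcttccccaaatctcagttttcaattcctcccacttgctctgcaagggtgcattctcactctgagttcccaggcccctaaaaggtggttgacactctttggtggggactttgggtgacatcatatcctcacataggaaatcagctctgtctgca
Capitals mark the motif of ETS factors (AGGAAG, or CTTCCT on the other strand), the E-box of E proteins (CACCTG, or CAGGTG) and the RUNX motif (TGTGGT, or ACCACA); no match overlapped another. The window of Cd3g held 2 E-boxes, that of Cd3d 1 E-box and 1 ETS motif, and that of Cd8a held no match. Over the 10 start sites, 7 windows held an ETS motif, 6 an E-box and 2 a RUNX motif, where 29.5%, 17.2% and 14.0% of all 32851 mouse promoters of the same length did. The 10 windows came from 7 genes, Lck and Zap70 having more than 1 start each. For Cd247, Lck start 2 and Zap70 starts 2 and 3, all 250 bases lie within the annotated span of the gene. A match is a description of these letters and not a site or a cause, and the absence of one says only that the letters are not in the window.

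The zeta chain, encoded by Cd247, carries most of the phosphorylation motifs of the receptor and also serves receptors of NK cells. It had 13.9, 3.50 and 20.9 normalized counts in the Control samples and 16.4, 18.3, 18.4 and 28.2 in the STING samples. Only STING 4 exceeded Control 3, so the groups overlapped, and the low averaged Control rested on 5 and 1 counts, both under the floor. For Cd247 the log2 fold change was 0.63 (95% confidence interval -0.53 to 1.80; edgeR adjusted p = 0.550). It was 0.22 without Controls 2 and 4 and 1.19 without Control 3; the value of this gene thus depended on which Control tumors were included.

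Of the coreceptors, Cd8a encodes CD8 alpha, found on cytotoxic T cells as a dimer with CD8 beta and on a subset of dendritic cells as a dimer with itself. Its normalized counts were 31.5, 12.8 and 22.3 in the Control samples and 82.9, 35.5, 27.6 and 68.8 in the STING samples. STING 1 and STING 4 were more than 2 times the highest Control value, while STING 3 lay below Control 1, so the groups overlapped; 3 of 4 Control tumors were above the floor. The log2 fold change was 1.26 (95% confidence interval 0.16 to 2.36; edgeR adjusted p = 0.223), and 0.98 without STING 1.

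Cd8b1 encodes CD8 beta, which is largely restricted to T cells. It had 8.33, 3.50 and 12.2 normalized counts in the Control samples and 23.4, 14.7, 12.3 and 18.5 in the STING samples. The groups did not overlap, but STING 3 and Control 3 were separated by less than 0.1 normalized counts. All 4 STING tumors and 1 of 4 Control tumors were above the background floor, so the Control level was at background in most tumors. No fold is given against these Control values (edgeR adjusted p = 0.250).

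Cd4, the coreceptor of helper and regulatory T cells, stayed at background. Its normalized counts were 10.2, 2.33 and 5.76 in the Control samples and 7.01, 9.78, 1.02 and 6.18 in the STING samples. Neither group was higher, and 5 of the 8 tumors were at or under their floor, with raw counts of 1 to 11. The mean of each group was under the mean floor of its samples, so no fold change is given. The unadjusted p of edgeR was 0.907, which at this depth does not show that Cd4 was equal in both groups.

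Lck and Zap70 encode the kinases of the complex, Lck acting first and ZAP-70 after it; both are also found in NK cells. Lck had 24.1, 11.7 and 20.9 normalized counts in the Control samples and 50.2, 25.7, 25.5 and 33.5 in the STING samples. The groups did not overlap, although STING 2 and STING 3 exceeded Control 1 by little, and 3 of 4 Control tumors were above the floor. Lck had a log2 fold change of 0.82 (95% confidence interval -0.07 to 1.71; edgeR adjusted p = 0.299). Zap70 had 16.7, 8.16 and 11.5 normalized counts in the Control samples and 22.2, 12.2, 21.5 and 22.1 in the STING samples. The values of Controls 2 and 4 were under the floor of each tumor. STING 2 was apart from the other STING tumors and within the Control range. Zap70 had a log2 fold change of 0.68 (95% confidence interval -0.18 to 1.54; edgeR adjusted p = 0.362).

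**Figure D2:**
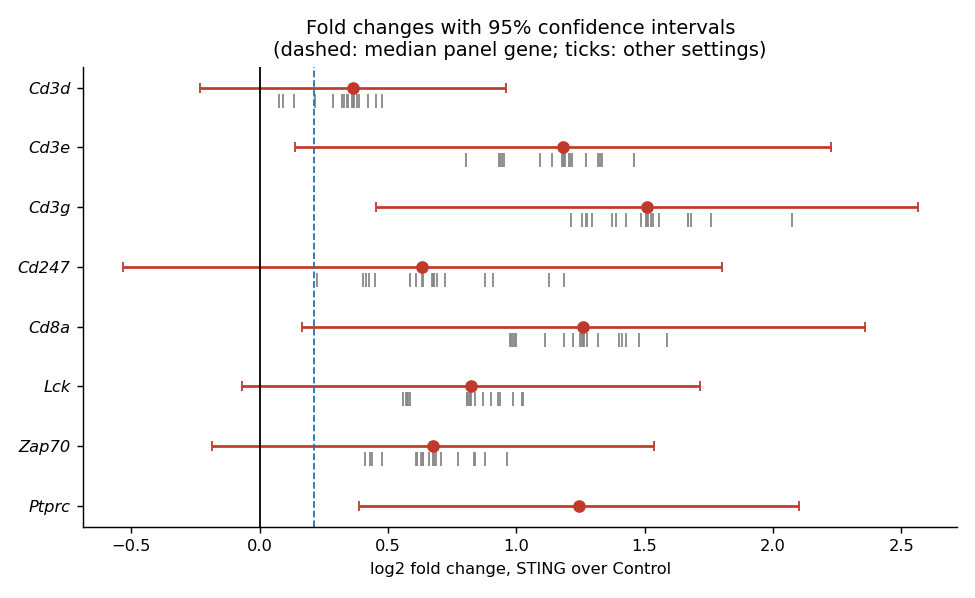
Log2 fold changes of STING over Control (x axis) from edgeR for 7 of the 9 genes and Ptprc (y axis; Cd4 and Cd8b1, at background in most Control tumors, are left out), as points with 95% confidence intervals, n = 3 Control and 4 STING samples. The dashed line is the median of the 750 genes at 0.21. Gray ticks are the values of the 7 genes in the other settings. The intervals of Cd3e, Cd3g, Cd8a and Ptprc lie above 0. The Control mean of Cd3e was just under the mean floor of the Control samples, so its point is not an exact fold change.

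The fold changes depended on the scaling. The median of all 750 genes was 0.21 on the log2 scale with housekeeping genes and -0.02 with TMM, -0.04 with DESeq2 size factors and 0.01 with the total count. Relative to the panel median, the median of the 9 genes was higher by 0.61 with housekeeping genes and by 0.60, 0.60 and 0.57 with those scalings. By an unadjusted p under 0.05, the panel split into 133 higher and 10 lower genes with housekeeping genes, 87 and 40 with TMM, 81 and 45 with DESeq2 size factors, and 68 and 31 with the total count. The 8 genes other than Cd4 had a positive log2 fold change under each of the 5 other scalings. With the total count, 1 of the 9 genes (Cd3g) had an unadjusted p under 0.05, where 9.07% of the panel was higher by that rule.

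The ratio of CD8 to CD4 is often used to describe the makeup of T cells. The log2 ratio of Cd8a to Cd4, with 1 added to each normalized count, was 1.54, 2.05 and 1.79 in the Control samples and 3.39, 1.76, 3.82 and 3.28 in the STING samples. STING 2 lay within the Control range and the other STING tumors above it. The mean was 1.79 ± 0.26 (SD) in 3 Control and 3.06 ± 0.90 in 4 STING samples, and the exact permutation p was 0.114 (adjusted p = 0.229 over the 12 coreceptor ratios). For Cd8b1 to Cd4 it was -0.26, 0.43 and 0.97 in the Control samples and 1.60, 0.54, 2.71 and 1.44 in the STING samples, again with STING 2 within the Control range (exact permutation p = 0.114, adjusted p = 0.229). Cd4 was at background, and the extremes of the STING tumors in both ratios went with its values: STING 3, the highest, had the lowest Cd8a and Cd8b1 of the group and a Cd4 count of 1, while STING 2, the lowest, had the highest Cd4.

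Against the CD3 chains, the direction of the CD8 ratios depended on the chain. Cd8a over Cd3d, as log2, was -1.14, -2.21 and -1.43 in the Control samples and -0.39, -0.80, -1.26 and -0.48 in the STING samples, with STING 3 below Control 1 (exact permutation p = 0.086, adjusted p = 0.229); its mean difference of 0.86 was 0.55 without Controls 2 and 4. The ratio of Cd8a to Cd3g ran the other way, at 0.08, -0.51 and -1.35 against -0.84, -0.88, -1.24 and -0.89 (exact permutation p = 0.429, adjusted p = 0.643), and its mean difference of -0.37 was -0.036 without Control 1 and -0.75 without Control 3. To Cd3e it was 1.54, 1.02 and 0.74 against 1.86, 1.22, 0.81 and 0.88, with means 0.09 apart (exact permutation p = 0.800). In mean values, the difference between groups was larger for Cd8a than for Cd3d, similar to that of Cd3e and smaller than that of Cd3g, and the tests did not separate them.

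The means for Cd8b1 had the same order, although its Control values were at background in 3 of 4 tumors and set no exact difference. Its mean log2 ratio in STING less that in Control was 0.79 to Cd3d, 0.02 to Cd3e and -0.45 to Cd3g. The exact permutation p were 0.086, 0.943 and 0.114. To Cd3d the difference was 0.38 without Controls 2 and 4 and 0.32 with a pseudocount of 10. To Cd3g it was -0.29 without Control 4 and -0.71 with a pseudocount of 10. The ratio of Cd8a to Cd8b1, which compares the chains of the CD8 dimer with each other, was 1.80, 1.62 and 0.82 in the Control samples and 1.78, 1.22, 1.11 and 1.84 in the STING samples. The groups overlapped, with means 0.08 apart (exact permutation p = 0.886). To the geometric mean of the 3 CD3 chains, Cd8a was at 0.16, -0.57 and -0.68 against 0.21, -0.15, -0.56 and -0.17, and Cd8b1 at -1.64, -2.19 and -1.50 against -1.58, -1.37, -1.67 and -2.00. These overlapping values carry no test.

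For Cd4, the log2 ratio to the CD3 chains was lower in STING by 0.41, 1.18 and 1.64 in the mean for Cd3d, Cd3e and Cd3g, and the groups overlapped in each. With Cd4 at background, no level of Cd4 can be read from these ratios. None of the 12 ratios passed after adjustment (lowest adjusted p = 0.229) and 0 had an unadjusted p under 0.05 by exact permutation. The test counts how many of the 35 arrangements of the samples give a mean difference at least as large in either direction, so that the smallest p it can give is 0.029.

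**Figure D3:**
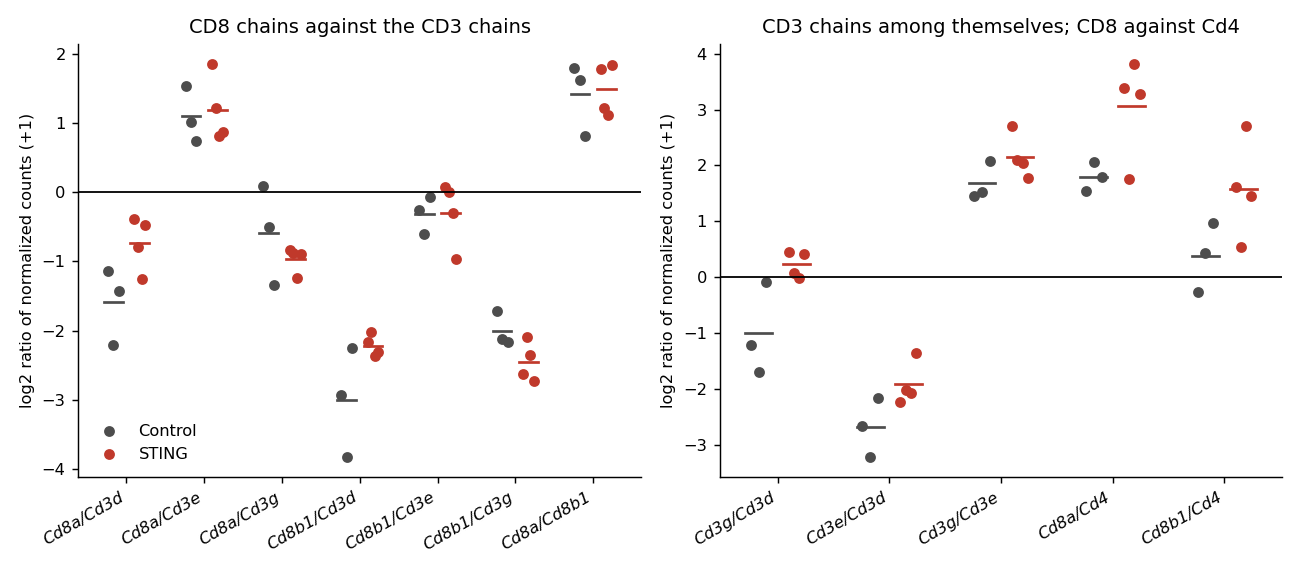
Log2 ratios (y axis) of normalized counts, 1 added to each, for pairs of genes (x axis) in 3 Control (gray) and 4 STING (red) samples, with the group means as lines. On the left the STING means of Cd8a and Cd8b1 lie above the Control means relative to Cd3d and below them relative to Cd3g; on the right the ratio of Cd3g to Cd3d is the pair whose groups do not overlap.

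Ptprc, the gene of CD45, is expressed by nearly all leukocytes and sets each gene against the immune cells of the same tumor. It had 108, 42.0 and 111 normalized counts in the Control samples and 257, 166, 140 and 267 in the STING samples, without overlap (log2 fold change 1.24, edgeR adjusted p = 0.181). The averaged Controls 2 and 4 were the lowest and STING 1 and STING 4 the highest, an order that Cd3g and Cd8a shared. Relative to Ptprc, Cd3d was lower in the STING tumors: its log2 ratio was -0.62, 0.57 and -0.83 in the Control samples and -1.23, -1.40, -1.04 and -1.47 in the STING samples. The groups did not overlap (exact permutation p = 0.029, the smallest the samples allow, and 0.057 if the p of the tail is doubled instead). Without Controls 2 and 4, whose averaged ratio was the highest, the mean difference was -0.56 in place of -0.995 (exact permutation p = 0.067, then the smallest possible). The p of Cd3d was the lowest of 9 such ratios, and 0 of the 9 passed the planned adjustment. Since Cd3d itself was not lower in the STING tumors, the ratio says only that Cd3d differed less between the groups than Ptprc did.

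For Cd3g and Cd8a the ratio to Ptprc overlapped between the groups. For Cd3g the log2 ratio was -1.84, -1.13 and -0.92 against -0.78, -1.32, -1.06 and -1.05, that of Cd8a -1.75, -1.64 and -2.26 against -1.62, -2.20, -2.30 and -1.94. The ratio of Cd8a had nearly the same range in both groups. For Cd3g, Control 1 lay below each STING tumor and STING 1 above each Control sample. The mean differences were 0.24 for Cd3g and -0.13 for Cd8a (exact permutation p of 0.486 and 0.629). For Cd3e, Cd247, Cd8b1, Lck and Zap70 the mean difference ran from -0.66 to -0.21, with exact permutation p of 0.086 to 0.371. With a pseudocount of 10, Cd3e, Cd8b1 and Lck had -0.53, -0.61 and -0.62, each at the same exact permutation p of 0.029 as Cd3d; with the negative controls subtracted, Cd3e and Cd8b1 had 0.31 and 0.12 instead, so that neither their call nor their direction held across settings. With a pseudocount of 1 the groups overlapped in each of these, and for Cd4, at background, the exact permutation p was 0.086.

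**Figure D4:**
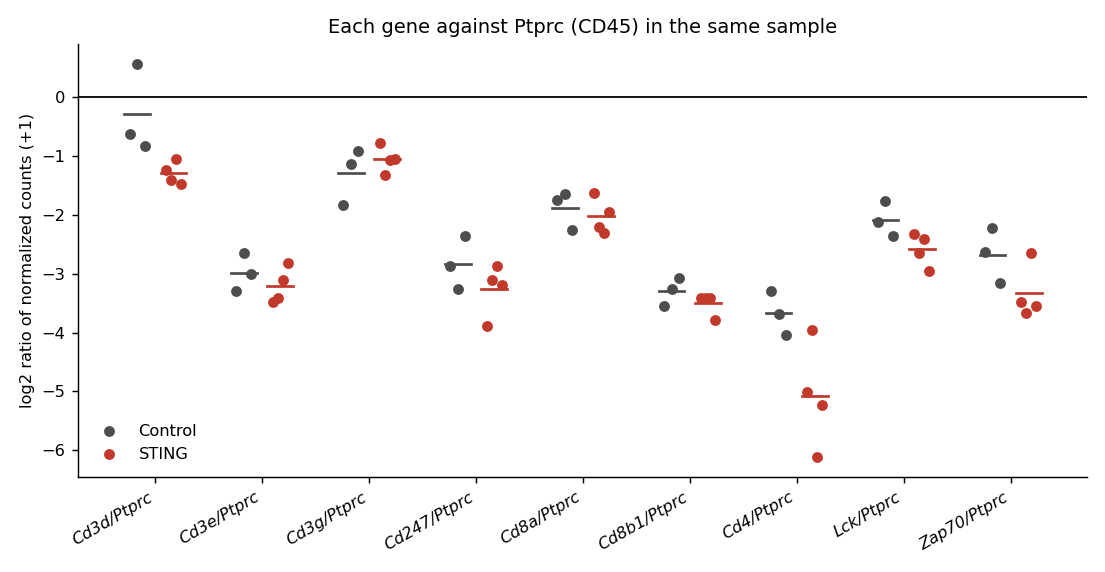
Log2 ratio of each of the 9 genes to Ptprc (y axis; normalized counts with 1 added) in 3 Control (gray) and 4 STING (red) samples, lines at group means. Cd3d is the gene whose groups do not overlap, with STING samples at -1.47 to -1.04 and Control samples at -0.83 to 0.57.

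The wider T cell program was described with lists. Of 39 genes listed for receptor signaling and the T cell surface, 26 were measured; 3 were higher, among them Slamf6 and Il7r, and 0 lower at an unadjusted p under 0.05, where 17.7% of the panel was higher, and the median log2 fold change was 0.08 beside 0.21 for all genes. Of 14 listed T cell transcription factors 10 were measured, with 1 higher (Runx1), 0 lower and a median of 0.29. Without Control 1, without STING 1 or without STING 4, the first list had 1 higher gene in place of 3 (panel 12.4%, 10.3% and 10.5% higher), and without STING 2 it had 5 (18.1%); the second had 2 without Control 3 (20.4%).

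Slamf6, a receptor of the SLAM family on T and NK cells, had 3.70, 2.33 and 5.76 normalized counts in the Control samples and 14.0, 9.78, 12.3 and 15.0 in the STING samples. The groups did not overlap, but the Control values were under the background floor in each tumor. Il7r, the receptor for the survival cytokine IL-7, had 8.33, 14.0 and 25.9 against 77.1, 24.4, 23.5 and 54.7. STING 1 and STING 4 stood above the others, as for Cd8a, and STING 2 and STING 3 lay within the Control range. Runx1, a factor of blood cell development that also acts in T cells, had 199, 167 and 197 against 294, 385, 228 and 341, without overlap. The log2 fold changes of Il7r and Runx1 were 1.46 and 0.73, with edgeR adjusted p of 0.223 and 0.175; for Slamf6 the adjusted p was 0.171, and no fold is given against Control values at background.

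No listed T cell gene was lower at an unadjusted p under 0.05, and Tcf7 and Il2ra were among the 3 with the lowest p in that direction. Tcf7, which encodes TCF-1 of naive and memory-like T cells, had 128, 113 and 122 normalized counts in the Control samples and 100, 97.8, 123 and 108 in the STING samples. Il2ra, the alpha chain of the IL-2 receptor, had 67.5, 62.9 and 89.3 against 52.6, 61.1, 70.5 and 70.6. The groups overlapped for both, with log2 fold changes of -0.17 and -0.20 (edgeR adjusted p of 0.658 and 0.719). In the same samples Cd3e had 5.83 to 37.1 normalized counts, and which cells gave the counts of Tcf7 was not tested.

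Across the 7 samples, the genes outside the T cell receptor group whose log2 levels followed the mean of Cd3d, Cd3e and Cd3g most closely were H2-T23, Itgb2, Mefv, Cd274, Irf8 and Klrc1. Their Pearson r ran from 0.979 to 0.991 over n = 7 samples, where the median of the 515 genes compared was 0.605, so that high r was common in these samples. H2-T23 is a nonclassical MHC class I gene, Itgb2 an integrin chain of leukocytes, Mefv the gene of pyrin in myeloid cells, Cd274 the gene of PD-L1, Irf8 a factor of myeloid cells, and Klrc1 an NK receptor gene found on some CD8 T cells. H2-T23 had 409, 261 and 476 normalized counts in the Control samples and 954, 604, 605 and 1014 in the STING samples. As for Cd3g, STING 1 and STING 4 were the highest and the averaged Control the lowest. The samples share their scaling, and 143 genes of the panel had an unadjusted p under 0.05 between the groups, so r is given as a description only. Among the 9 genes themselves, r with the other CD3 chains was 0.933 for Cd3e, 0.930 for Cd3g, 0.755 for Cd3d, 0.930 for Cd8a, 0.935 for Cd8b1, 0.904 for Lck, 0.802 for Zap70, 0.770 for Cd247 and 0.235 for Cd4.

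Markers of other cell types were set beside these values, their counts again to be read against the 17.7% of the panel that was higher and the 1.33% that was lower. Of 13 listed NK cell genes 11 were measured and 3 were higher at an unadjusted p under 0.05; their sum was 546, 413 and 571 normalized counts in the Control samples and 999, 544, 641 and 1042 in the STING samples, with Klrd1 the most abundant. The groups overlapped in this sum, and the median log2 fold change of the list was 0.17 beside 0.21 for the panel. STING 1 and STING 4 were again the highest, as for Cd3g, Cd8a and Ptprc. Of the defining NK genes, Klrb1c was above the floor in 4 of 8 tumors, and Ncr1, Klrk1 and Klrd1 in 8 of 8. Ncr1 and Klrb1c, the most specific to these cells, had unadjusted edgeR p of 0.77 and 0.98. Klrk1 and Klrd1 had log2 fold changes of 1.16 and 0.57, with unadjusted edgeR p of 0.021 and 0.086. NK cells express Cd247, Lck and Zap70, and their part in the result was not tested.

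B cell genes had 10 of 10 measured and 0 higher or lower, and Cd79b, the most abundant, was above the floor in 8 of 8 tumors. Their sum was 59.2, 66.4 and 92.2 normalized counts in the Control samples and 96.9, 46.5, 98.1 and 89.1 in the STING samples, Cd79a was at or under the floor in all 8 tumors, and Ms4a1 was above it in 3. Macrophage genes had 10 of 11 measured, 1 higher and 2 lower, with sums of 1968, 1168 and 2904 against 2821, 1949, 2427 and 2782 and Cd68 the most abundant. These genes ran in both directions, with log2 fold changes of 1.29 for Emr1, -1.32 for Cd163 and -1.33 for Marco (edgeR adjusted p of 0.191, 0.207 and 0.250), which the sum does not show. Dendritic cell genes had 5 of 10 measured and 2 higher, with sums of 55.5, 65.3 and 62.7 against 159, 74.6, 85.8 and 116, without overlap, and Cd83 the most abundant. Much of the difference was Cd83, with means of 15.2 and 44.6, and Flt3 ran the other way, with a log2 fold change of -0.38 (edgeR adjusted p = 0.698). Xcr1, a marker of a dendritic cell subset, was above the floor in 2 of 8 tumors, and Itgax, the gene of CD11c, in 3. A subset of dendritic cells carries CD8 alpha, and the part of these cells in Cd8a was not tested.

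The remaining lists cover neutrophils, epithelium and vessels. Neutrophil genes had 7 of 8 measured and 0 higher or lower, with sums of 332, 615 and 390 against 679, 314, 580 and 424 and S100a8 the most abundant. Epithelial genes, which would mark the colon or carcinoma cells, had 4 of 9 measured and 0 higher or lower, with sums of 60.1, 53.6 and 81.4 against 67.7, 34.2, 63.4 and 75.0 and Cdh1 the most abundant; Epcam was above the floor in 6 of 8 tumors. Endothelial genes had 6 of 6 measured and 1 higher, with sums of 280, 467 and 415 against 535, 516, 568 and 502, without overlap, and Pecam1 the most abundant. Their part in the values of the T cell genes was not tested.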

How the data were processed

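RNA of 8 tumors had been hybridized to the mouse PanCancer Immune Profiling codeset of the nCounter system (NanoString). The deposited counts were whole numbers per probe, neither scaled nor corrected for background, and never under 1. The authors name nSolver and R without versions. Groups and replicate numbers came from the sample titles; the tumors were pooled from 2 experiments per the paper, which does not say which came from which, so no batch was fitted. Each sample was scaled to its 20 housekeeping probes (geometric mean), and Controls 2 and 4 entered as the rounded mean of their counts. Testing used edgeR 4.0.16 (glmQLFit and glmQLFTest, R 4.3.3) over the 750 genes with no count filter and adjusted p-values over the whole panel. DESeq2 1.42.0 and limma 3.58.1 served as alternatives. Ratios were log2 of normalized counts with a pseudocount of 1, compared by exact two-sided permutation (Python 3.11.15). Named genes were the 9 genes; from the T cell lists each gene with an unadjusted p under 0.05, filled to 3 per direction; Ptprc; the 6 genes with at least 20 mean counts most correlated with the CD3 chains; and, of each marker list, the most abundant gene and defining markers near background; 3 genes that this rule names are not reported here. Some marker genes outside this rule, such as Emr1, Cd163, Marco, Ncr1 and Klrk1, are also named. The genes and lists were chosen with earlier results of these data known. The ratios to Ptprc cover only the 9 genes themselves. Their p-values are therefore printed unadjusted, with only the number that passed the planned adjustment. Counts near the floor carry large counting error. The p-values of edgeR set the difference between groups against the spread between samples, and the permutation p-values count arrangements of the samples. That spread can include differences between the 2 experiments, which the labels do not mark.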

Additional observations from a re-analysis of the deposited data

Results flagged for a closer look

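In the STING group, 42 values (the 9 genes, Ptprc, their ratios and the sums of the marker and liver lists) were compared across the 4 tumors for a sample far from the other 3. In 4 of them the outermost tumor passed the 95% limit of the Dixon test for 4 samples, which divides its distance from the next value by the range. Chance alone gives about 1 in 20 such values, so 3 of the first 41 is close to that rate; the liver genes were listed after their values were seen. Their sum was 2280 normalized counts in STING 4 and 48.9 to 73.6 in the others. Zap70 was at 12.2 normalized counts in STING 2 and at 21.5 to 22.2 in the others. The log2 ratio of Cd8a to Cd3g was -1.24 in STING 3 and -0.89 to -0.84 in the others. The log2 ratio of Cd8b1 to Ptprc was -3.78 in STING 4 and -3.42 to -3.40 in the others. The Control group, with 3 samples, was not compared in this way.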

How the results depend on the processing

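The 8 genes other than Cd4 kept a positive log2 fold change in each setting in which they were fitted, and none passed an adjusted p under 0.05 except Cd3g with the Wald test of DESeq2 (1.51, adjusted p = 0.0273), which gave no adjusted p for Cd8b1; the cause was not tested. Over the panel, 1 gene passed without Control 3 and 7 without STING 3, none of them of the 9, and the 143 genes with an unadjusted p under 0.05 became 84 without STING 1 and 89 without STING 4. The number of the 9 genes that were higher at an unadjusted p under 0.05, 4 in the report, was 1 with the total count (9.07% of the panel), 1, Cd8b1, with the methods' t-test (11.6%), 1 without Controls 2 and 4 (12%), and 2 among genes with a mean of at least 20 counts (22.9%), a filter that 4 of the 9 passed; leaving out 1 tumor at a time gave 1 to 4. The number whose groups did not overlap, 4 in the report, was 2 with the total count, where 67 genes of the panel were higher without overlap in place of 126. With the replicate block and all 8 tumors separate, 5 of the 9 genes were higher (21.2% of the panel) and Cd3g had 1.76 (edgeR adjusted p = 0.138), and without the block the same 5 were higher (24.8%); the deviations of equal numbers correlated at -0.28 to -0.06 and 0 of 8 tumors correlated best with their own number, so the numbers were not taken to pair the tumors. The block put no gene past the adjusted threshold. Leaving out 1 tumor gave 1 to 5 higher genes in the T cell surface list and 1 to 2 among the transcription factors.

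Ratios near 0 changed sign, none of them past an adjusted p under 0.05 in any setting; with a pseudocount of 10 the ratios of Cd3e, Cd8b1 and Lck to Ptprc reached an exact permutation p of 0.029. The difference in the log2 ratio of Cd8a to Cd8b1 was -0.048 with all 8 tumors separate, -0.0017 with a pseudocount of 0.1, -0.093 with the negative controls subtracted, and -0.22 to 0.27 with 1 tumor left out. For Cd8b1 to Cd3e it was -0.13 without Controls 2 and 4, -0.076 with a pseudocount of 10, -0.18 with the negative controls subtracted and -0.11 to 0.24 with 1 tumor left out. Cd8a to Cd3e gave -0.28 with the negative controls subtracted and -0.13 to 0.31 with 1 tumor left out. Cd4 to Cd3d ran from -0.82 to 0.022 and Cd3g to Ptprc from -0.030 to 0.43 with 1 tumor left out. With the negative controls subtracted, the ratios to Ptprc were 0.31 for Cd3e, 0.031 for Cd8a and 0.12 for Cd8b1. With 1 tumor left out the exact permutation test cannot reach 0.05 unless that tumor is Control 2 or Control 4. Depth limits Cd4, Cd8b1, Cd3e and Cd247 most, with counts of 1 to 5 in Controls 2 and 4.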
